A study of Mus musculus with 12 samples.

Results

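The 87 genes described here encode subunits of the 5 complexes of oxidative phosphorylation, in mouse MC38 tumors treated with SFIH, with an anti-PD-1 antibody or with both. They are the rows of the count table whose symbols start with Ndufa, Ndufb, Ndufc, Ndufs, Ndufv, Sdha, Sdhb, Sdhc, Sdhd, Uqcr, Cox4i, Cox5, Cox6, Cox7, Cox8 or Atp5, leaving out symbols that start with Ndufaf or contain -ps, and whose counts over the 12 tumors summed to at least 120. Of the 23282 rows of the table, 89 matched by name and 87 of these reached the sum. The 2 that did not were Cox8c, with a summed count of 0, and Cox6b2, with 63, and the members with the lowest sums inside the rule were Cox4i2 with 153, Cox7b2 with 181 and Sdhaf3 with 246. By complex, 36 members belong to complex I, 8 to complex II, 8 to complex III, 18 to complex IV and 17 to complex V, the ATP synthase. By role, 17 are core subunits (the redox core of complexes I to III and the head and central stalk of the ATP synthase), 57 are accessory subunits, 6 are tissue-restricted paralogs, and 7 that share the names are assembly or other factors rather than structural subunits (Sdhaf1, Sdhaf2, Sdhaf3, Sdhaf4, Atp5s, Atp5sl and Cox7a2l).

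Oxidative phosphorylation takes place in the inner mitochondrial membrane. Complex I (NADH dehydrogenase) and complex II (succinate dehydrogenase, also an enzyme of the citric acid cycle) pass electrons to coenzyme Q, complex III passes them to cytochrome c, and complex IV (cytochrome c oxidase) passes them to oxygen, while complexes I, III and IV pump protons whose return through complex V drives the synthesis of ATP. All members are encoded in the nucleus, complexes I, III, IV and V also hold subunits encoded by mitochondrial DNA, and the levels of the mitochondrially encoded transcripts were not analysed here.

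MC38, a mouse colon carcinoma line, was grown subcutaneously on the right side of female C57BL/6 mice aged 6 weeks. All mice carried the same tumor line and genotype (WT), the groups differed only in what was injected, and tumors were taken on day 19. Con mice received saline with DMSO and Tween 80 as vehicle and an IgG2a isotype antibody. SFIH mice received SFIH, a hexane fraction of the root of Inula helenium rich in the sesquiterpene lactones alantolactone and isoalantolactone, at 50 mg/kg into the peritoneum daily. A figure legend of the study lists this group as given the IgG2a antibody as well. PD mice received an anti-PD-1 antibody, clone RMP1-14, at 200 μg per injection, and Comb mice received both. Each group has 3 tumors. The labels do not say whether the tumors of a group came from separate mice, so the p-values measure only the spread between these samples.

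Each tumor had 7870741 to 12261032 counts on genes, and the ribosomal RNA precursor Rn45s took 4.28% to 17.1% of them. The labels call the material tumor cells while the methods of the study describe tumor tissue. Summed over 6 macrophage markers the level was 421 to 731 CPM in Con and 856 to 12435 CPM in Comb, while 4 epithelial markers (Epcam, Krt8, Krt18 and Cdh1) reached together only 3.81 to 4.65 CPM in Con and 5.05 to 86.1 CPM in Comb. Comb replicate 3 stood apart from the other 11 tumors. Its TMM factor, which rescales a library for its composition, was 0.76 where those of the others lay between 0.88 and 1.12, its 16 skeletal muscle markers summed to 10717 CPM where those of the other tumors summed to between 17.9 and 1100 CPM, and the biological coefficient of variation of the fit was 0.398 with it and 0.261 without it. Fold changes and counts from the fits that involve Comb are therefore given with and without this tumor, except for most counts and some medians of the lists of other genes.

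The members together took 1.57% ± 0.0787 of all counts in Con (mean ± SD, n = 3). Their share was 1.36% ± 0.0652 in PD, 1.69% ± 0.11 in SFIH and 1.69% ± 0.371 in Comb. In the single tumors the shares of Con were 1.59, 1.48 and 1.64% and those of PD were 1.33, 1.32 and 1.44%, while SFIH had 1.67, 1.81 and 1.60% and Comb 1.53, 1.43 and 2.12%. The 3 PD tumors lay below every Con and every SFIH tumor, and Comb replicate 3 lay above all other tumors. With Rn45s left out of the total the means of Con, SFIH, PD and Comb were 1.71, 1.81, 1.53 and 1.87%. In bulk tumors, fewer cells that express a gene and less of its RNA per cell cannot be told apart.

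**Figure D1:**
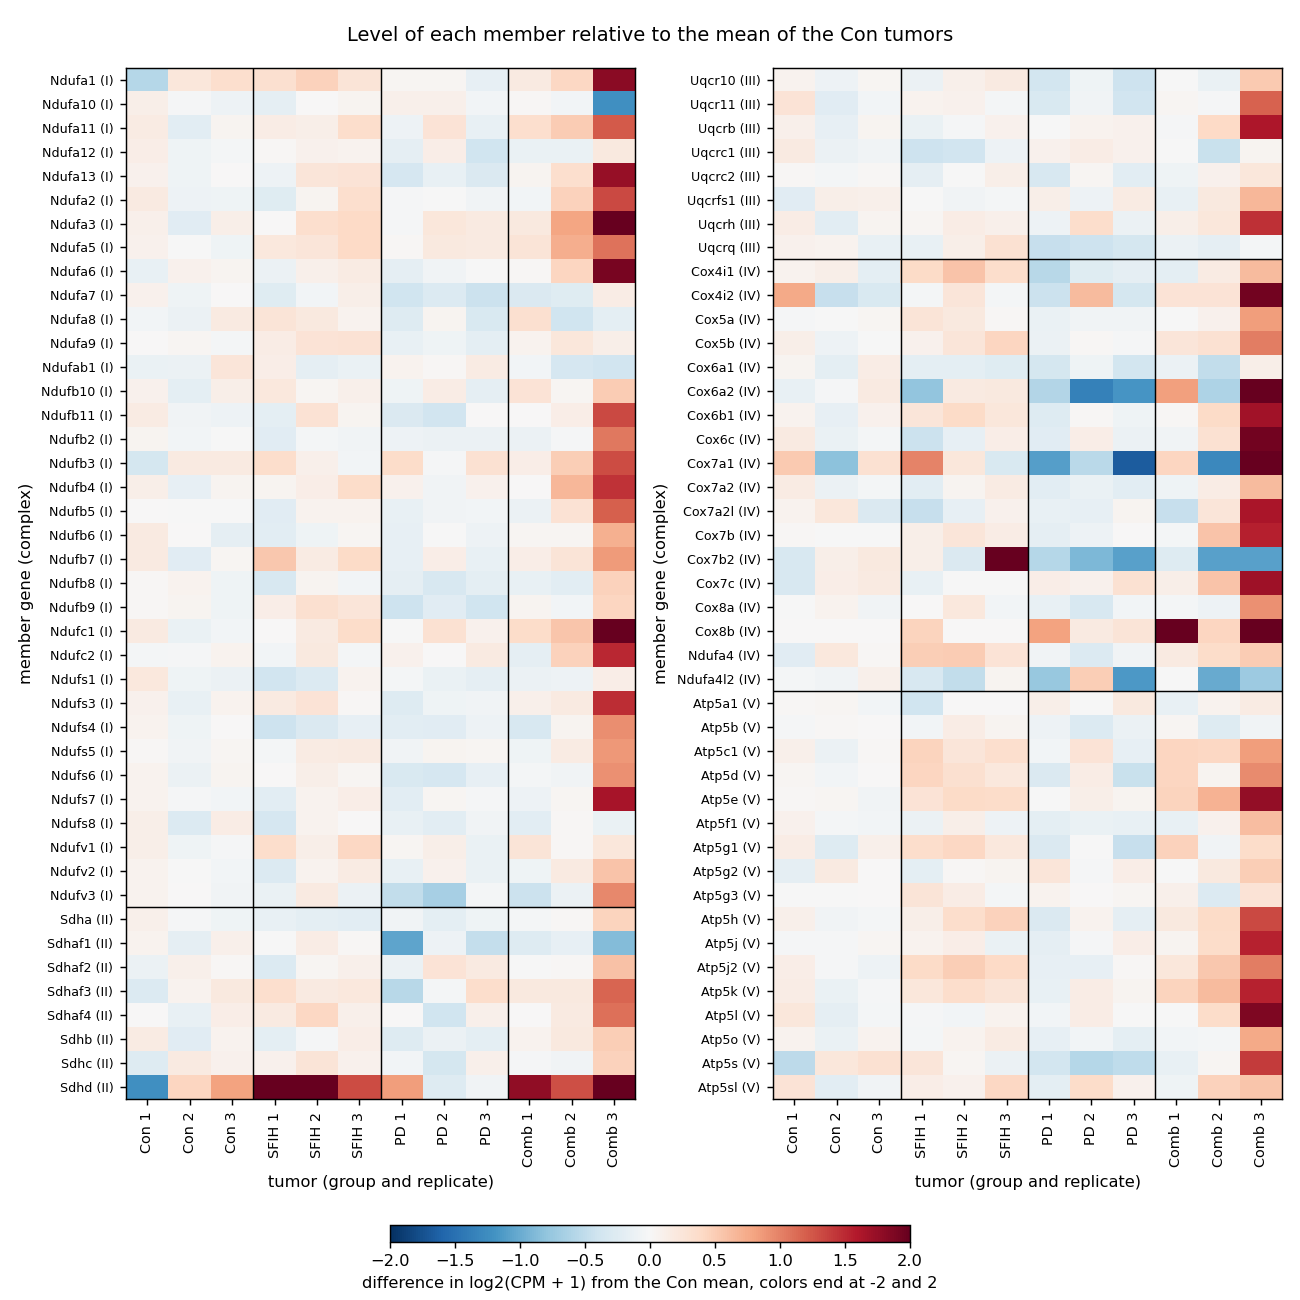
Each row is a member gene with its complex in brackets (1 member is not drawn) and each column is a tumor, and the color gives the difference of log2(CPM + 1) from the mean of the 3 Con tumors. The column of Comb replicate 3 is red for most members, with Ndufa10, Sdhaf1, Cox7b2 and Ndufa4l2 among those in blue, and the row of Sdhd is red in all SFIH and Comb tumors.

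The levels behind the heat map of members by tumor are CPM, counts scaled to a common library size with TMM factors, on the scale of log2(CPM + 1), and they are not divided by transcript length because the libraries copy only 3′ ends. Within groups the median member varied less than the median gene tested, and the genes were not matched to the members in level. The median SD of a member was 0.14 in Con, 0.14 in SFIH and 0.12 in PD, beside 0.19, 0.20 and 0.24 over all 13464 genes tested. In Comb the median SD was 0.47 for members and 0.59 for all genes, and between Comb replicates 1 and 2 alone it was 0.17 and 0.27. The smallest range over the 12 tumors was that of Atp5b, the catalytic beta subunit of the ATP synthase, at 0.43. The largest was that of Cox8b, a muscle-type subunit of complex IV, at 6.26. Of the 87 members, 86 passed the filter on low counts and were tested with edgeR, and Cox8b was not. DESeq2 was run on all genes with a count, Cox8b included, and its shares are of the 7957 to 19008 genes for which it gave an adjusted p.

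Sdhd, the membrane anchor subunit of succinate dehydrogenase that helps bind coenzyme Q, had the widest range of any core subunit, 3.97. Its level was 7.28, 24.99 and 32.8 CPM in Con, 107, 97.7 and 47.0 CPM in SFIH, 33.6, 15.3 and 17.4 CPM in PD and 65.4, 46.4 and 129 CPM in Comb. All 6 tumors given SFIH, alone or with anti-PD-1, lay above all 6 tumors not given it, although Con replicate 1 was far below the other Con tumors. On the log2(CPM + 1) scale Sdhd averaged 6.32 ± 0.64 in SFIH and 6.21 ± 0.74 in Comb, beside 4.28 ± 1.08 in Con and 4.45 ± 0.59 in PD (mean ± SD, n = 3). The log2 fold change in SFIH against Con was 1.95 (SE 0.57, unadjusted p = 0.00582, adjusted p = 0.9998) in edgeR's quasi-likelihood test with Benjamini-Hochberg adjustment over all genes tested.

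SFIH against Con was the comparison of SFIH alone. Of the 86 members tested, 15 lay higher in all 3 SFIH tumors than in all 3 Con tumors, which is 17.4% of them, beside 8.55% of all genes tested. In the lower direction 2 members did not overlap, 2.33% beside 8.86%. Complex V held 7 of the 15, namely Atp5c1, Atp5d and Atp5e of the central stalk and its base, Atp5g1 of the membrane ring, Atp5h of the outer stalk, and Atp5j2 and Atp5k of the membrane part. The others were Cox4i1, Cox6b1, Cox7b and Ndufa4 of complex IV, Ndufa5, Ndufa9 and Ndufb9 of complex I, and Sdhd. The 2 lower members were Sdha, the flavoprotein of succinate dehydrogenase, and Ndufs4, an accessory subunit of complex I.

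The log2 fold changes of Sdhd and of Cox7b2, at 1.95 and 1.87, were the largest among the members tested, and that of Cox7b2 rested on SFIH replicate 3. The median log2 fold change over the 86 members was 0.06, beside 0.02 over all genes. Leaving out 1 tumor at a time it ran from 0.02 without Con replicate 2 to 0.10 without SFIH replicate 1, with 0.03 without SFIH replicate 2 and 0.09 without Con replicate 1. By complex it was 0.06 for complex I, 0.10 for II, 0.00 for III, 0.06 for IV and 0.13 for V. Atp5j2, the f subunit of the ATP synthase, had 563, 501 and 474 CPM in Con and 665, 717 and 675 CPM in SFIH, a log2 fold change of 0.42 (SE 0.20, unadjusted p = 0.0635, adjusted p = 0.9998) by edgeR. Ndufa4, named after complex I but counted here with complex IV, where the protein is found, had 68.1, 92.2 and 80.6 CPM in Con and 113, 114 and 96.8 CPM in SFIH, a log2 fold change of 0.43 (SE 0.17, unadjusted p = 0.0288, adjusted p = 0.9998) by edgeR. In both genes the groups did not overlap, although without TMM Ndufa4, Atp5g1, Cox6b1 and Cox7b overlapped with Con. In the lower direction the smallest p-values belonged to Uqcrc1, a core protein of complex III, Cox6a1 of complex IV, and Sdha. The log2 fold change of Uqcrc1 was -0.30 (SE 0.18, unadjusted p = 0.122, adjusted p = 0.9998) by edgeR, and its levels of 125, 101 and 104 CPM in Con and 82.1, 83.9 and 102 CPM in SFIH overlapped. Sdha had 146, 135 and 129 CPM in Con and 123, 119.6 and 118 CPM in SFIH, without overlap.

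With edgeR, 0 members passed an adjusted p of 0.05 in SFIH against Con (0% of all genes did so), 2 members were higher and 0 lower at an unadjusted p under 0.05, beside 1.2% and 1.05% of all genes, and DESeq2 called 0 members, beside 0.00526% of all genes in each direction. When Comb replicate 3, which is in neither group but adds to the pooled spread, was left out, edgeR had 11 members higher and 1 lower at that unadjusted p, beside 3.48% and 4.01%, with 0 past the adjustment, and DESeq2 called 0, beside 0.256% in each direction. Of the 12 marker lists of cell types, 0 separated the SFIH from the Con tumors by their summed level.

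The Comb tumors, given SFIH too, offered a second set of tumors with the agent. Over all 12 tumors, 7 members lay higher in all 6 SFIH and Comb tumors than in all 6 Con and PD tumors, 8.14% of those tested beside 0.676% of all genes, and 0 members lay lower in all 6, beside 1.75%. This comparison of 6 tumors with 6 was added after the data had been seen. The 7 were Atp5e, Atp5h, Atp5j2 and Atp5k of the ATP synthase, Ndufa5 and Ndufa9 of complex I, and Sdhd. On total counts without TMM, 8 members separated, beside 0.379% of all genes, with Ndufa11 and Atp5c1 added and Ndufa9 no longer among them.

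**Figure D2:**
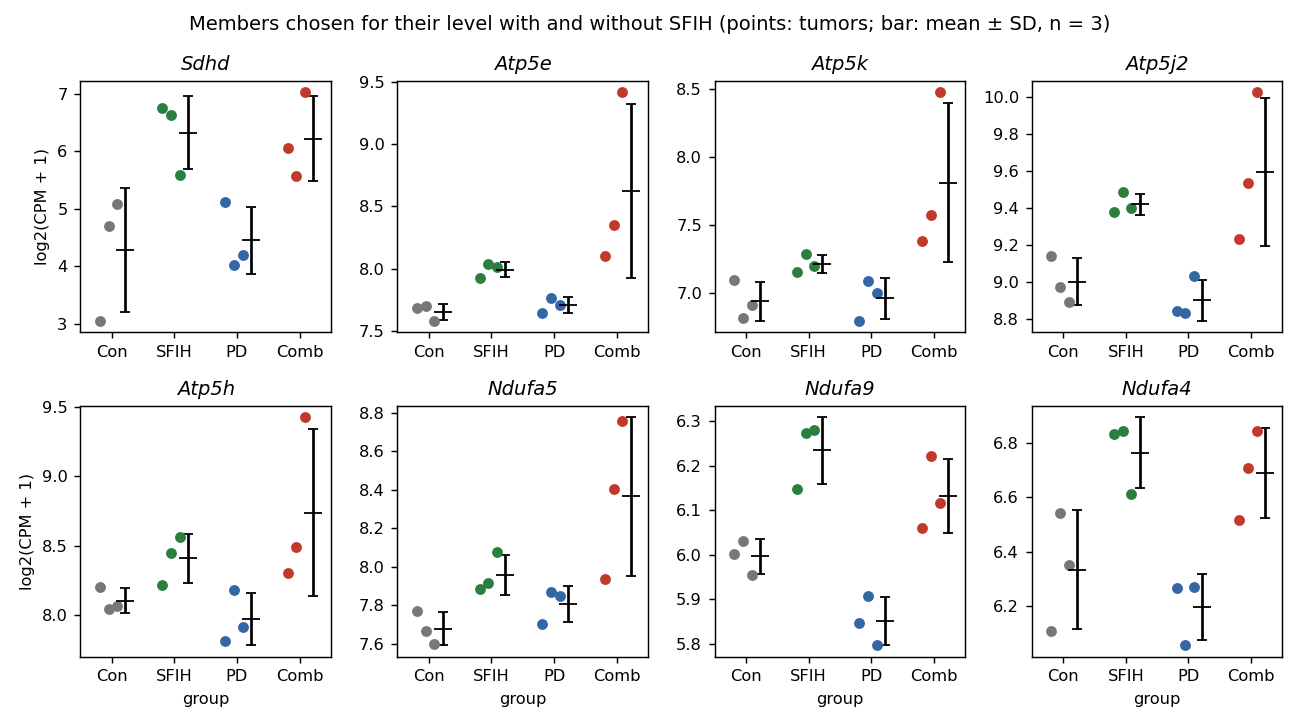
Each panel shows 1 member with its level in log2(CPM + 1) on the vertical axis and the 4 groups on the horizontal axis, the points being tumors and the bar the mean ± SD (n = 3). In the first 7 panels every SFIH and Comb tumor lies above every Con and PD tumor, and in that of Ndufa4 Comb replicate 1 at 90.5 CPM lies just under Con replicate 2 at 92.2 CPM.

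Atp5e, the epsilon subunit at the foot of the central stalk, had 205, 206 and 191 CPM in Con, 242, 261 and 258 CPM in SFIH, 199, 217 and 209 CPM in PD and 273, 325 and 682 CPM in Comb. Atp5k, the e subunit of the membrane part, had 135, 111 and 119 CPM in Con, 142, 155 and 145 CPM in SFIH, 109.9, 135 and 127 CPM in PD and 166, 189 and 354 CPM in Comb. In both genes the lowest tumor given SFIH lay above the highest tumor not given it, and Comb replicate 3 was the highest of all. Atp5h, the d subunit of the outer stalk, showed the smallest gap of the 4, with 294 CPM in Con replicate 1 and 296 CPM in SFIH replicate 1.

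Ndufa5, an accessory subunit in the matrix arm of complex I, had 217, 202 and 193 CPM in Con, 235, 241 and 269 CPM in SFIH, 207, 233 and 229.8 CPM in PD and 244, 338 and 432 CPM in Comb. Here the PD tumors overlapped with Con and reached at most 233 CPM, and the gap to the lowest SFIH tumor was narrow. Ndufa9, an accessory subunit at the joint of the matrix and membrane arms, had 63.1, 64.4 and 61.1 CPM in Con, 69.9, 76.4 and 76.7 CPM in SFIH, 56.6, 59.0 and 54.7 CPM in PD and 65.7, 73.7 and 68.3 CPM in Comb. The difference of Ndufa9 was small, but its range over all 12 tumors, 0.48, was the second smallest of the members, and Comb replicate 3 lay between the other tumors given SFIH.

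In the average of SFIH and Comb against the average of Con and PD, a contrast added after the data had been seen, the 3 higher members with the smallest p-values in edgeR were Sdhd, Atp5j2 and Ndufa4. The log2 fold change of Sdhd was 1.90 (SE 0.41, unadjusted p = 0.000634, adjusted p = 0.313), that of Atp5j2 was 0.58 (SE 0.14, unadjusted p = 0.00203, adjusted p = 0.313), and that of Ndufa4 was 0.46 (SE 0.12, unadjusted p = 0.00263, adjusted p = 0.313) by edgeR. The 3 lower members were Uqcrc1, Ndufab1 (the mitochondrial acyl carrier protein) and Ndufa10 of complex I. Their log2 fold changes were -0.26 (SE 0.13), -0.22 (SE 0.16) and -0.20 (SE 0.19). With Comb replicate 3 left out, Sdhd, Atp5j2 and Ndufa4 had 1.64 (SE 0.36), 0.45 (SE 0.09) and 0.42 (SE 0.10), with adjusted p of 0.101, 0.084 and 0.115 by edgeR, and the 3 lower members had -0.31 (SE 0.11), -0.18 (SE 0.15) and -0.05 (SE 0.09). With edgeR 0 members passed the adjusted threshold, and 26 were higher and 0 lower at an unadjusted p under 0.05, beside 9.11% and 5.4% of all genes. DESeq2 called 4 members higher, Sdhd, Atp5j2, Ndufa4 and Ndufa9, beside 0.881% of all genes (0.712% lower), and its adjusted p was 0.00226, 0.0207 and 0.0209 for the first 3.

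In the fit without Comb replicate 3, DESeq2 called 8 members higher in this contrast, Atp5c1, Atp5e, Atp5h, Atp5j2, Atp5k, Ndufa4, Ndufb9 and Sdhd, beside 1.34% of all genes (1.92% lower), while edgeR called 0 and had 24 higher and 1 lower at an unadjusted p under 0.05, beside 7.25% and 8.3%. Without Comb replicate 1, edgeR called 4 members, all higher, 4.65% beside 1.17% of all genes (0.859% lower). The median log2 fold change of the members was 0.33 with all tumors and 0.14 without Comb replicate 3, beside 0.02 for all genes in both cases. Of the 12 marker lists 0 separated the 6 tumors given SFIH from the 6 others.

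The promoters of all 7 genes that separated the tumors by SFIH are shown, of which 4 hold the same letters, those bound by nuclear respiratory factor 1 (NRF1), a transcription factor known for its sites in many genes of oxidative phosphorylation. Sequences are those of RefSeq on GRCm38.p6 and cover the 250 bases before the start of transcription, 5′ to 3′ on the strand of the gene. Capitals mark matches to GCGCANGCG (NRF1) and to ACCGGAAG (the GABP factor of the ETS family) on either strand. Sdhd lies on the minus strand at chr9:50603850-50604099, Atp5k on the minus strand at chr5:108434400-108434649, Atp5h on the minus strand at chr11:115419920-115420169, Ndufa5 on the minus strand at chr6:24527691-24527940 (the upstream of its 2 starts), Atp5e on the minus strand at chr2:174464102-174464351, Atp5j2 on the minus strand at chr5:145191542-145191791, and Ndufa9 on the minus strand at chr6:126849145-126849394.
Sdhd: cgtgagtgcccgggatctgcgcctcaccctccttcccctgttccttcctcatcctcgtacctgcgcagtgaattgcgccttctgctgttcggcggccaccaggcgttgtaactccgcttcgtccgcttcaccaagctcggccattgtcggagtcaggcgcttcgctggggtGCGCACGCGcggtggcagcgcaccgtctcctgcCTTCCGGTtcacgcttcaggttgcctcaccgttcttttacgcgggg
Atp5k: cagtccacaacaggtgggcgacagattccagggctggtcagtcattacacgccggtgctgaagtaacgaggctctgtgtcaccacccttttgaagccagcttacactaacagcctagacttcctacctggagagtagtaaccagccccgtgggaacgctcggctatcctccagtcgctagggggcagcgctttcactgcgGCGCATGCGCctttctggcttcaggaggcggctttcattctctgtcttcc
Atp5h: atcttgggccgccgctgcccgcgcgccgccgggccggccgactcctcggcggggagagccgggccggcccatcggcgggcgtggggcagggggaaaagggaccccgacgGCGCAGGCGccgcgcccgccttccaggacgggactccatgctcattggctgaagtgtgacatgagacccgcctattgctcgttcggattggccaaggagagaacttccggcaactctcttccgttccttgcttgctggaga
Ndufa5: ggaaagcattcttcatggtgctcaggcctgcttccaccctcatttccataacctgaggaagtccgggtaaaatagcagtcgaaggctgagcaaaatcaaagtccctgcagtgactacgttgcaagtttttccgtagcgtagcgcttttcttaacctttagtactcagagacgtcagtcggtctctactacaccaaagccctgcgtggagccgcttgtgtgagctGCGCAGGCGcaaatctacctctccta
Atp5e: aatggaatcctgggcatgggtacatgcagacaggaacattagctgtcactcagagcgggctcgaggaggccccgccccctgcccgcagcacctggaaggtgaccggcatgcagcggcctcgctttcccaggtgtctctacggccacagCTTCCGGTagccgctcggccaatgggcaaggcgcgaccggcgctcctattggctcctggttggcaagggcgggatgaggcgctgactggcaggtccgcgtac
Atp5j2: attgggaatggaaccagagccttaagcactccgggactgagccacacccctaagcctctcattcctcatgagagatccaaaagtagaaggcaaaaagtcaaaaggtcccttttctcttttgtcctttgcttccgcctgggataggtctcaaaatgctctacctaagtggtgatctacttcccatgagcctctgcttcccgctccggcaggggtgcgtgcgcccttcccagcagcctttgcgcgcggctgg
Ndufa9: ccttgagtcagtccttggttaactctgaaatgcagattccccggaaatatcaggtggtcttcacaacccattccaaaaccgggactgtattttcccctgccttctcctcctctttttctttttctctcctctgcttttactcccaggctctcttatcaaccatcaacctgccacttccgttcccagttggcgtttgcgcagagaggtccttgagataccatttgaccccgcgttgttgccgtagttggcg

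The NRF1 letters start at base 172 of the printed stretch in Sdhd, 201 in Atp5k (overlapping a match on the other strand), 110 in Atp5h and 225 in Ndufa5. The GABP letters start at base 205 in Sdhd and 149 in Atp5e, on the opposite strand in both. Atp5j2 and Ndufa9 hold neither. In windows of 300 bases, from 250 before the start to 50 after it, 73 members had an entry in the RefSeq table, and 22 of these (30.1%) held the NRF1 letters, beside 7.03% of 27025 genes. Among the 66 members outside the 7, 18 held them. The GABP letters were found for 6 members (8.22%), beside 2.6% of all genes, those of YY1 (AAGATGGCG) for 8 (11%, beside 1.64%), those of the estrogen-related receptors (TCAAGGTCA) for 2 (2.74%, beside 0.466%) and those of MEF2 (CTAAAAATA) for 0, beside 0.588%. A match is a description of the letters in these windows and not a measured site.

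PD against Con showed the opposite direction. Of 86 members, 17 lay lower in all 3 PD tumors than in all 3 Con tumors, 19.8% of them beside 9.36% of all genes tested, and 0 lay higher, beside 9.42%. Among the 17 were 9 accessory subunits of complex I (Ndufa7, Ndufa9, Ndufa13, Ndufb2, Ndufb5, Ndufb8, Ndufb9, Ndufs4 and Ndufs6), Uqcrq of complex III, Cox5a, Cox6a2, Cox7a2 and Cox7b2 of complex IV, and Atp5b and Atp5f1 of complex V. On total counts without TMM, 29 members lay lower, beside 14.8% of all genes.

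Uqcrq, a small subunit of complex III, had 578, 572 and 492 CPM in Con and 398, 409 and 427 CPM in PD, a log2 fold change of -0.41 (SE 0.16, unadjusted p = 0.0274, adjusted p = 0.9998) by edgeR. Ndufa7 had 213, 189.6 and 203 CPM in Con and 153, 166 and 149 CPM in PD, and Ndufb9 had 188, 191 and 173 CPM in Con and 137, 156 and 139 CPM in PD. The log2 fold changes of these accessory subunits of complex I were -0.37 (SE 0.17, unadjusted p = 0.051, adjusted p = 0.9998) and -0.35 (SE 0.16, unadjusted p = 0.0557, adjusted p = 0.9998) by edgeR. In none of the 3 genes did the groups overlap. The higher members with the smallest p-values were Ndufb3, Ndufa5 and Atp5g2, with log2 fold changes of 0.20 (SE 0.29), 0.13 (SE 0.20) and 0.11 (SE 0.18), and their groups overlapped.

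The median log2 fold change of the members in PD against Con was -0.10, beside 0.01 for all genes, and it was -0.18 for complex IV and -0.02 for complex V. Within complex IV it was -0.11 for the 11 accessory subunits and -1.10 for the 5 tissue-restricted paralogs tested. With edgeR 0 members passed the adjusted threshold (0% of all genes did), 0 were higher and 1 lower at an unadjusted p under 0.05, beside 2.31% and 1.68% of all genes, and DESeq2 called 0, beside 0.00526% in each direction. In the fit without Comb replicate 3, which is in neither group, 0 were higher and 9 lower at that p by edgeR, beside 6.14% and 4.59%, and DESeq2 called 0, beside 0.34% and 0.173%. Beside this, 2 of the 12 marker lists did not overlap between the groups: the 6 macrophage markers summed to 771 to 1586 CPM in PD and 421 to 731 CPM in Con, and the 4 fibroblast markers to 3319 to 6215 CPM in PD and 1556 to 2207 CPM in Con, with no marker of either list at 0 in any of these tumors. The part of these cells in the lower members was not tested.

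Averaged over both groups given the antibody, a contrast also added after the data had been seen, the log2 fold change of Uqcrq was -0.31 (SE 0.11, unadjusted p = 0.0193, adjusted p = 0.172) and that of Cox7b2 was -3.20 (SE 0.995, unadjusted p = 0.00803, adjusted p = 0.122) by edgeR. Cox7b2, a testis-type subunit of complex IV, rested on few reads, with 103 of its 181 counts in SFIH replicate 3 alone. The higher members with the smallest p-values were Cox7c, Ndufc1 and Ndufa3, with log2 fold changes of 0.59 (SE 0.24), 0.62 (SE 0.28) and 0.58 (SE 0.28), and all 3 were highest in Comb replicate 3. In the fit without that tumor these were 0.29 (SE 0.12), 0.20 (SE 0.11) and 0.20 (SE 0.13), and Uqcrq and Cox7b2 had -0.33 (SE 0.10) and -2.93 (SE 0.96), with adjusted p of 0.104 and 0.13 by edgeR.

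In that contrast edgeR called 0 members, with 1 higher and 4 lower at an unadjusted p under 0.05, beside 13.4% and 5.32% of all genes, and DESeq2 called Cox8b higher and Cox7b2 lower, beside 7.34% and 1.28%. With that tumor left out, edgeR called 0 (0.0147% of all genes were higher) and had 1 member higher and 10 lower at an unadjusted p under 0.05, beside 11.6% and 7.87%, and DESeq2 called Cox4i1, Cox7b2, Ndufb9 and Uqcrq lower and Cox8b higher, beside 1.69% and 4.97%. Without Comb replicate 1, edgeR called 6 members, 4 higher and 2 lower, which is 4.65% and 2.33% beside 11.9% and 5.23% of all genes. The median of the members was 0.11 with all tumors, -0.07 without Comb replicate 3 and -0.10 without TMM, so that its sign rests on this tumor and on the scaling.

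In Comb the members lay higher against every other group, and most of this rests on 1 tumor. The median log2 fold change over the 86 members was 0.36 against Con, 0.52 against PD and 0.28 against SFIH, beside -0.03, 0.00 and -0.05 over all genes. Without Comb replicate 3 the medians were 0.06, 0.19 and -0.01, beside -0.01, 0.02 and -0.02 over all genes. The 3 comparisons share the Comb tumors, and SFIH and PD against Con share the Con tumors. Without TMM the medians were 0.06, 0.34 and -0.04 with all tumors, where the median of all genes was -0.29, -0.16 and -0.31, so that relative to all genes the members stood higher on both scalings while the sign against SFIH flips with it.

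**Figure D3:**
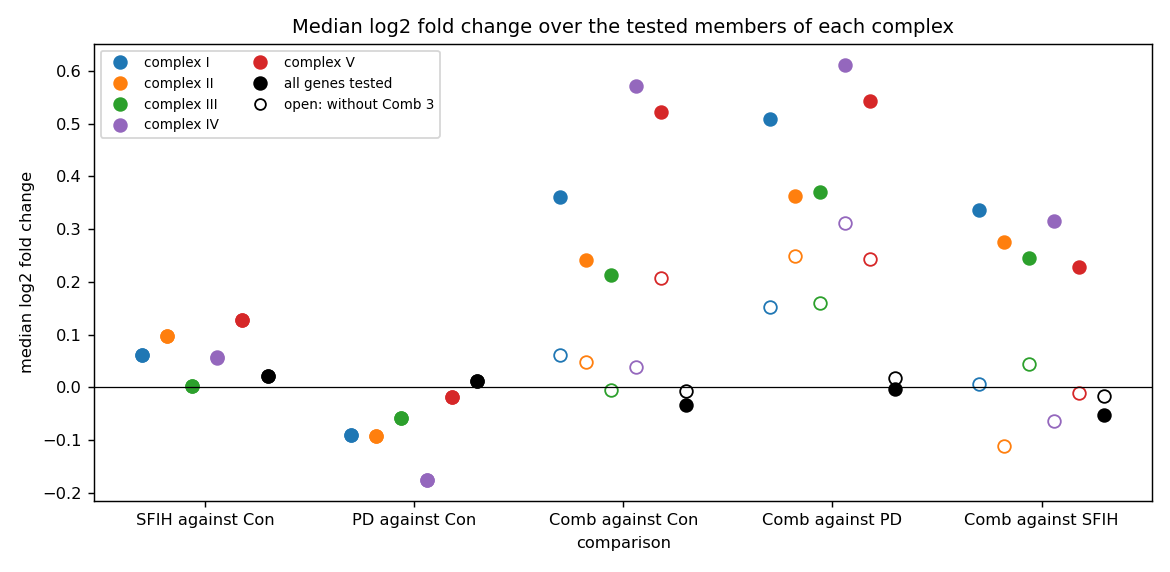
The vertical axis gives the median log2 fold change over the tested members of each complex, and over all genes tested in black, for 5 comparisons on the horizontal axis. Filled points use all 12 tumors and open points leave out Comb replicate 3, and the points of the complexes in the Comb comparisons drop from 0.21 to 0.61 to between -0.11 and 0.31 without it, while those of all genes lie between -0.05 and 0.02 in both fits.

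By complex, the medians in Comb against Con ran from 0.21 for complex III and 0.24 for complex II over 0.36 for complex I to 0.52 for complex V and 0.57 for complex IV. Without Comb replicate 3 they were -0.01, 0.05, 0.06, 0.21 and 0.04 in the same order. Complex IV had the largest value with all tumors and complex V without that tumor, as the plot of medians by complex shows. Within complex IV the 5 tissue-restricted paralogs tested had a median of 1.44 and the 11 accessory subunits one of 0.36. Without Comb replicate 3 these were -0.38 and 0.12, so that the accessory subunits of complex IV lay below complex V in both fits. Among the roles, the 57 accessory subunits had a median of 0.38 and the 17 core subunits one of 0.25 with all tumors, and 0.10 and 0.03 without that tumor.

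In Comb against Con, 15 members lay higher without overlap, 17.4% beside 11.7% of all genes, and 1.16% lay lower, beside 13%. Between Con and Comb replicates 1 and 2 alone, 15 lay higher and 5 lower, 17.4% and 5.81% beside 16.2% and 16.7%. The share of higher members is then near the background. Without TMM 9 lay higher and 9 lower, 10.5% in each direction, beside 7.6% and 22.2%. Complex V again held 7 of the 15 (Atp5c1, Atp5d, Atp5e, Atp5h, Atp5j, Atp5j2 and Atp5k), and the rest were Ndufa3, Ndufa5, Ndufa9, Ndufa11, Ndufc1 and Ndufs3 of complex I, Cox5b and Sdhd. Atp5e had a log2 fold change of 1.09 (SE 0.29, unadjusted p = 0.00283, adjusted p = 0.0686), Atp5k one of 0.96 (SE 0.26, unadjusted p = 0.00334, adjusted p = 0.0698), and Ndufa5 one of 0.73 (SE 0.20, unadjusted p = 0.00383, adjusted p = 0.0719) by edgeR. Without Comb replicate 3 these were 0.58, 0.54 and 0.51, with adjusted p of 0.0882, 0.101 and 0.121 by edgeR. Among the lower members, Sdhaf1 and Cox7b2 had log2 fold changes of -0.43 (SE 0.29) and -2.005 (SE 1.37), and -0.23 (SE 0.27) and -1.47 (SE 1.37) without that tumor.

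With edgeR 0 members passed the adjusted threshold in Comb against Con, and 29 were higher and 0 lower at an unadjusted p under 0.05, beside 18% and 7.3% of all genes. DESeq2 called 10 members higher and 0 lower, beside 11.3% and 2.43% of all genes, so that the share of members is near the background. They were Atp5c1, Atp5e, Atp5j2, Atp5k, Cox8b, Ndufa3, Ndufa5, Ndufa11, Ndufc1 and Sdhd. When that tumor was left out, DESeq2 called 4 higher (Atp5e, Atp5k, Cox8b and Ndufa5) and 0 lower, beside 3.82% and 1.25%, and edgeR called 0, beside 0.0294% and 0.00734%, with 9 higher and 0 lower at an unadjusted p under 0.05, beside 11.4% and 7.43%. Leaving out Comb replicate 1 instead, edgeR called 30 members, all higher, 34.9% beside 18.4% of all genes (10.1% lower). Beside these values, 5 of the 12 marker lists lay higher in all Comb than in all Con tumors. The summed level in Con and in Comb was 421 to 731 and 856 to 12435 CPM for macrophage, 1556 to 2207 and 2412 to 16156 CPM for fibroblast, 2.72 to 4.62 and 5.15 to 252 CPM for keratinocyte, 4.30 to 6.34 and 7.77 to 85.9 CPM for B and plasma cell, and 3.81 to 4.65 and 5.05 to 86.1 CPM for the epithelial markers. The highest keratinocyte and the highest epithelial level were both in Comb replicate 3. In Con, 2 of the 4 keratinocyte markers were at 0 in each tumor, up to 2 of the 4 B and plasma cell markers and up to 1 of the 4 epithelial markers. Their part in the levels of the members was not tested.

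Comb against PD asks what SFIH adds to the antibody. In it 27 members lay higher without overlap, 31.4% beside 6.16% of all genes, and 2 lay lower (Ndufab1 and Uqcrc1), beside 8.1%. With Comb replicates 1 and 2 alone, 27 lay higher and 2 lower, beside 9.44% and 10.6%, and without TMM 20 lay higher and 1 lower, beside 4.25% and 8.42%, Ndufab1 then overlapping. The 27 included 11 members of complex I, 3 of complex II, 2 of complex III, 5 of complex IV and 6 of complex V. Cox6a2, the heart and skeletal muscle form of a complex IV subunit, had 10.1, 5.59 and 6.40 CPM in PD and 28.7, 9.90 and 90.8 CPM in Comb, a log2 fold change of 2.54 (SE 0.65, unadjusted p = 0.00241, adjusted p = 0.243) by edgeR, and its groups overlapped. The log2 fold change of Atp5e was 1.03 (SE 0.29, unadjusted p = 0.00393, adjusted p = 0.243) and that of Atp5k was 0.93 (SE 0.26, unadjusted p = 0.00394, adjusted p = 0.243) by edgeR, and neither overlapped. In the fit that left out Comb replicate 3, Cox6a2, Atp5e and Atp5k had 1.38 (SE 0.44), 0.52 (SE 0.12) and 0.52 (SE 0.14), with an adjusted p of 0.532 for each by edgeR.

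The lower members with the smallest p-values in Comb against PD were Ndufab1, Ndufa10 and Uqcrc1, with log2 fold changes of -0.37 (SE 0.23), -0.37 (SE 0.27) and -0.22 (SE 0.18), and -0.30 (SE 0.23), -0.07 (SE 0.13) and -0.31 (SE 0.17) without Comb replicate 3. With edgeR 0 members passed the adjusted threshold, and 40 were higher and 0 lower at an unadjusted p under 0.05, beside 12.9% and 5.11% of all genes. Leaving out Comb replicate 3, 18 were higher and 0 lower at that p, beside 4.11% and 4.9%, and 0 passed the adjustment. DESeq2 called 6 members higher with all tumors (Atp5e, Atp5j2, Atp5k, Cox6a2, Cox7a1 and Sdhd), beside 2.32% and, in the lower direction, 0.493%, and Atp5e alone without Comb replicate 3, beside 0.0754% and 0.239%. In the fit without Comb replicate 1, edgeR called 31 members, all higher, beside 11% of all genes (4.11% lower). Of the 12 marker lists 0 separated Comb from PD.

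In Comb against SFIH, which share the agent, 5 members lay higher without overlap (Atp5e, Atp5k, Cox4i2, Cox7c and Sdha), 5.81% beside 7.65% of all genes, and 2 lay lower, Sdhaf1 among them, beside 8.56%. Both shares lie below the background. Between SFIH and Comb replicates 1 and 2 alone, 5 lay higher and 7 lower, 5.81% and 8.14% beside 10.7% and 12%. Without TMM 2 lay higher and 11 lower, 2.33% and 12.8% beside 4.65% and 14.9%, and of the 5 named only Cox7c stayed without overlap, so that the balance of the directions turned in both cases. The log2 fold changes of Cox7c, Ndufc1 and Atp5k were 1.02 (SE 0.34, unadjusted p = 0.0111, adjusted p = 0.152), 1.11 (SE 0.40, unadjusted p = 0.0187, adjusted p = 0.18) and 0.68 (SE 0.26, unadjusted p = 0.0216, adjusted p = 0.189) by edgeR, and those of the lower Cox7b2 and Sdhaf1 were -3.88 (SE 1.38) and -0.49 (SE 0.29). The fit without Comb replicate 3 gave 0.42 (SE 0.18), 0.27 (SE 0.16) and 0.27 (SE 0.14) for Cox7c, Ndufc1 and Atp5k, with adjusted p of 0.435, 0.57 and 0.518 by edgeR, and -3.34 (SE 1.38) and -0.29 (SE 0.27) for Cox7b2 and Sdhaf1. With edgeR 0 members passed the adjusted threshold, 15 were higher and 1 lower at an unadjusted p under 0.05, beside 14.8% and 4.22%, and without Comb replicate 3 these were 1 and 2, beside 7.16% and 3.63%. DESeq2 called Cox8b alone, higher, beside 7.18% and 0.595% of all genes, and 0 members without Comb replicate 3, beside 0.571% and 0.116%. With Comb replicate 1 left out, edgeR called 21 members, 20 higher and 1 lower, which is 23.3% and 1.16% beside 15.5% and 6.97% of all genes. The macrophage list was the only 1 of the 12 marker lists that separated Comb from SFIH, with 719 to 819.5 CPM in SFIH.

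The interaction asks whether SFIH shifted a member differently with the antibody than without it. Its median over the members was 0.39, and 0.13 without Comb replicate 3, beside -0.03 and -0.01 over all genes. The higher members with the smallest p-values were Cox6a2, with 2.63 (SE 0.89, unadjusted p = 0.0126, adjusted p = 0.894), and Cox7a1, with 3.64 (SE 1.62, unadjusted p = 0.0462, adjusted p = 0.894) by edgeR, both of which are muscle-type genes of complex IV, followed by Ndufs4 with a log2 value of 0.79 (SE 0.38). The lowest values with the smallest p belonged to Ndufab1, Ndufa10 and Ndufv1, at -0.30 (SE 0.32), -0.34 (SE 0.38) and -0.14 (SE 0.22). Leaving out Comb replicate 3, the values of Cox6a2, Cox7a1 and Ndufs4 were 1.47 (SE 0.59), 0.97 (SE 1.09) and 0.34 (SE 0.19), with an adjusted p of 0.9998 for each by edgeR, and those of the 3 lower members were -0.23 (SE 0.31), -0.04 (SE 0.17) and -0.17 (SE 0.19). With edgeR 0 members passed the adjusted threshold and 2 were higher and 0 lower at an unadjusted p under 0.05, beside 2% and 0.557% of all genes, 1 and 0 without Comb replicate 3, beside 0.712% and 0.837%. DESeq2 called 0 with all tumors, beside 0% and 0.00526%, and 0 without Comb replicate 3, beside 0% in each direction.

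Comb replicate 3 did not lift all members alike. Against the mean of the other 11 tumors, on the log2(CPM + 1) scale, Cox6c was 1.97 higher, Ndufa3 1.95 higher and Ndufc1 2.04 higher, while Ndufa10 was 1.23 lower, at 87.0 CPM where the others lay between 182 and 223 CPM. Cox6c, Ndufa3 and Ndufa10 were singled out after their values had been seen. The shorter transcripts stood higher. Over the 86 members tested, Spearman's rho between the difference and the length of the longest protein-coding transcript in GENCODE M21 was -0.41, and over 12760 genes it was -0.15, both across genes, which are not independent replicates and share the library.

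**Figure D4:**
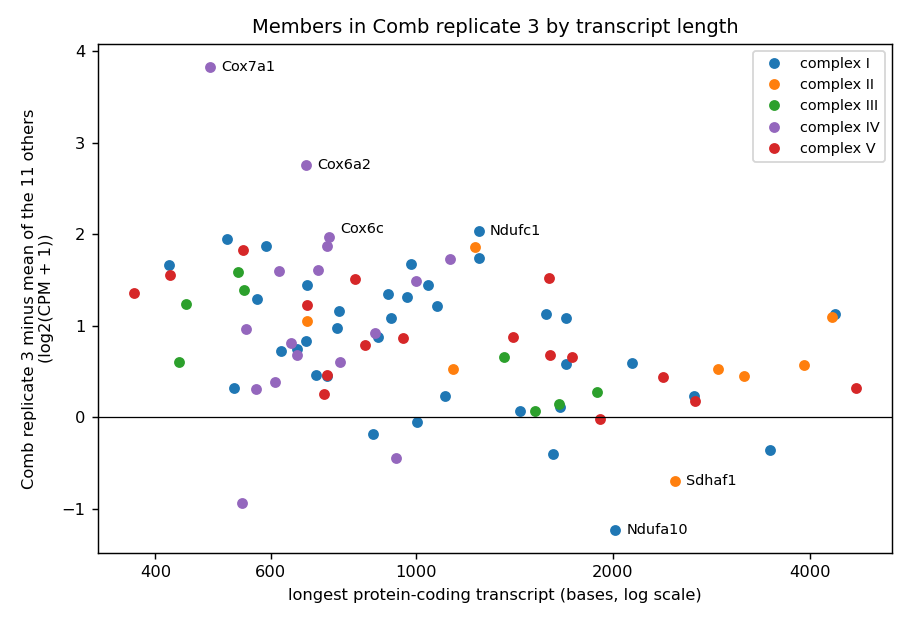
Each point is a tested member, with the length of its longest protein-coding transcript in bases on a log axis and, on the vertical axis, Comb replicate 3 minus the mean of the 11 other tumors in log2(CPM + 1). Members up to 908 bases sit at a median of 1.05 and those from 918 bases at 0.59, and Cox7a1 and Cox6a2 stand highest.

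In the plot of members by transcript length, the 43 shorter members had a median difference of 1.05 and the 43 longer ones one of 0.59, and without TMM these were 0.62 and 0.15 with a rho of -0.41. In the other tumors rho over the members ran from -0.15 in Comb replicate 2 to 0.36 in PD replicate 3. The median length was 913 bases for the members and 3069 for all genes tested, and 1623 for core and 757 for accessory subunits. The part of transcript length in the Comb values was not tested, and roles were not compared at matched length.

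Among the core subunits of complex I that carry iron-sulfur clusters or flavin, Ndufs1 had 122, 99.1 and 97.8 CPM in Con and 97.4, 98.1 and 116 CPM in Comb, and Ndufs8 had 76.7, 58.6 and 78.5 CPM in Con and 60.6, 72.2 and 64.1 CPM in Comb, with overlap in both. Ndufv1, which binds NADH, and Ndufv2 beside it also overlapped between Con and each treated group. Ndufs3 had 45.4, 38.3 and 45.1 CPM in Con and 46.0, 48.3 and 121 CPM in Comb, and Ndufs7 had 51.5, 48.3 and 47.2 CPM in Con and 45.8, 50.5 and 156 CPM in Comb. In both of the latter genes Comb replicate 3 alone was far above the Con tumors.

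Of the 4 subunits of complex II, Sdhd alone separated the tumors by SFIH. Sdhb, the iron-sulfur subunit, had 372, 283 and 347 CPM in Con, 289.7, 325 and 364 CPM in SFIH, 276, 307 and 291 CPM in PD and 348, 381 and 465 CPM in Comb. Sdhc, the other membrane anchor, had 81.9, 110.5 and 103 CPM in Con, 104, 117 and 103 CPM in SFIH, 94.5, 76.8 and 105 CPM in PD and 96.1, 93.0 and 134 CPM in Comb. Neither separated SFIH from Con. Sdha had 146, 135 and 129 CPM in Con, 123, 119.6 and 118 CPM in SFIH, 129.8, 119 and 128 CPM in PD and 132, 138 and 186 CPM in Comb, so that every SFIH tumor lay below every Con tumor while every Comb tumor lay above every PD tumor. On total counts without TMM, SFIH still lay below Con, but Comb with 135, 122 and 141 CPM overlapped with PD, which had 131, 111 and 134 CPM.

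Uqcrfs1, the Rieske iron-sulfur protein of complex III, had 84.4, 107 and 106 CPM in Con, 97.9, 93.8 and 95.7 CPM in SFIH, 107, 91.8 and 109.9 CPM in PD and 88.9, 113 and 157 CPM in Comb, with overlap in all 5 comparisons of groups. Uqcrc2, the second core protein, overlapped likewise, with 215 CPM as its lowest level in PD replicate 1 and 314 CPM as its highest in Comb replicate 3. Without TMM, Uqcrc2 lay lower in all PD and all Comb tumors than in all Con tumors, and lower in all Comb than in all SFIH tumors. In complex IV, Cox4i1, the regulatory subunit that binds ATP, had 580.1, 602 and 482 CPM in Con, 717, 819 and 705 CPM in SFIH, 376, 468 and 487 CPM in PD and 482, 619 and 854 CPM in Comb. Its SFIH tumors lay above all Con tumors, while the Comb tumors overlapped with Con. Cox5a had 214, 215 and 222 CPM in Con and 198, 206 and 207 CPM in PD, and Cox5b had 231, 198 and 211 CPM in Con and 253, 264 and 434 CPM in Comb. Cox5a lay lower in all PD tumors and Cox5b higher in all Comb tumors than in all Con tumors. Without TMM, Cox5b in Comb overlapped with Con.

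In the ATP synthase, Atp5a1 had 423, 426 and 400 CPM in Con, 314, 419 and 419 CPM in SFIH, 454, 414 and 475 CPM in PD and 374, 439 and 465 CPM in Comb, and Atp5b had 499, 518 and 509 CPM in Con, 489, 566 and 529 CPM in SFIH, 473, 419.9 and 471 CPM in PD and 521, 426 and 484 CPM in Comb. These alpha and beta subunits, which form the catalytic head, overlapped with Con in SFIH and in Comb. Atp5c1, the gamma subunit of the central stalk, had 131, 113 and 125 CPM in Con, 167, 146 and 156 CPM in SFIH, 118, 149.6 and 109 CPM in PD and 165, 164 and 219 CPM in Comb, and Atp5d, the delta subunit, had 173, 163 and 169.6 CPM in Con, 226, 211 and 195 CPM in SFIH, 138, 187 and 123 CPM in PD and 226, 174 and 326 CPM in Comb. Both lay above Con in all SFIH and all Comb tumors, as did Atp5e. Of the outer stalk, Atp5h lay above Con in both groups, Atp5j in Comb only, and Atp5o and Atp5f1 in neither. Without TMM, Atp5d and Atp5j in Comb overlapped with Con, and Atp5a1 lay lower in all Comb than in all Con tumors. Differences between these subunits were not tested, and Atp5a1 and Atp5b have the longer transcripts (2674 and 1916 bases, beside 1735, 1410 and 421 for Atp5c1, Atp5d and Atp5e).

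Except for Ndufa4l2, the tissue-restricted paralogs of complex IV subunits were low in most tumors and higher in a few. Cox8b, found in heart, skeletal muscle and brown fat, had 0 counts in all Con tumors. It had 5, 0 and 0 counts in the SFIH tumors and 7, 1 and 2 in the PD tumors, while Comb had 40, 3 and 629. A count of 0 in a tumor allows up to 3 counts at this depth, so that SFIH replicate 1, PD replicate 1 and Comb replicates 1 and 3 stood above that limit. Cox7a1, its partner in muscle, had 5.35, 1.51 and 4.46 CPM in Con, 7.86, 4.16 and 2.61 CPM in SFIH, 1.07, 2.05 and 0.4 CPM in PD and 4.95, 0.806 and 50.2 CPM in Comb. Cox6a2 had 14.1, 15.5 and 17.9 CPM in Con, 8.66, 18.0 and 18.1 CPM in SFIH, 10.1, 5.59 and 6.40 CPM in PD and 28.7, 9.90 and 90.8 CPM in Comb. In both, Comb replicate 3 was the highest tumor, and Cox6a2 was lower in all PD than in all Con tumors.

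**Figure D5:**
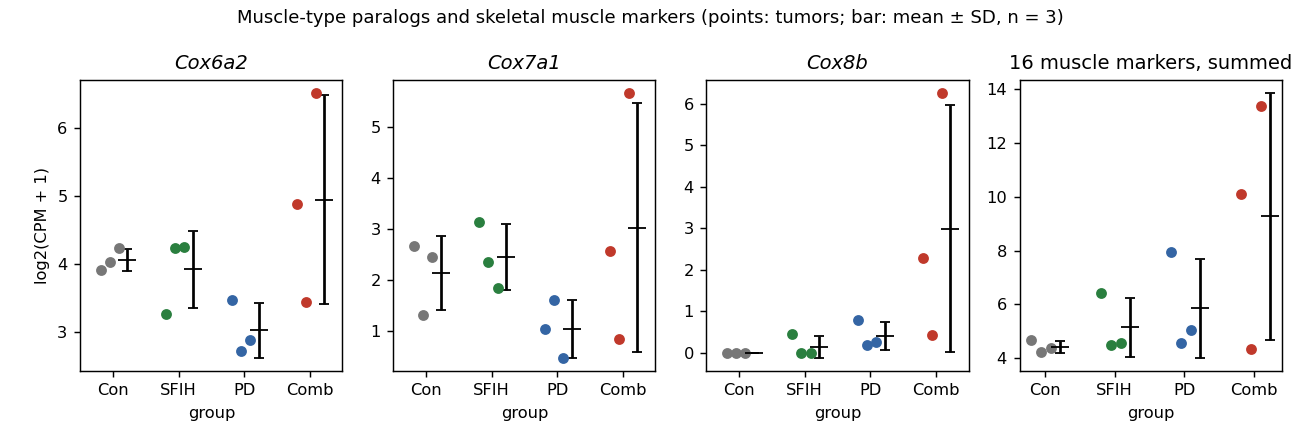
The first 3 panels show the muscle-type members Cox6a2, Cox7a1 and Cox8b and the last the sum of 16 skeletal muscle markers, in log2(CPM + 1) by group, with points for tumors and a bar for the mean ± SD (n = 3). Comb replicate 3 is the highest tumor in all 4 panels, and Comb replicate 1 the next in those of Cox6a2, Cox8b and the markers.

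The 16 skeletal muscle markers, among them Acta1, Ckm, Myh4 and Ttn, summed to 17.9 to 24.5 CPM in Con, and the SFIH tumors held 21.3 to 84.0 CPM of them. In PD the sum was 22.5 to 245 CPM, and the Comb tumors had 1100, 19.2 and 10717 CPM. All 16 had counts in SFIH replicate 1, PD replicate 1, Comb replicate 1 and Comb replicate 3, and between 1 and 7 of them were at 0 in each of the other tumors. Among the defining markers Acta1 had 1991 counts in Comb replicate 1 and 21163 in Comb replicate 3, beside 5 to 9 in Con. The plot of muscle-type paralogs shows the same 2 tumors high for Cox6a2 and Cox8b. Over the 12 tumors Spearman's rho with the summed markers was 0.75 for Cox8b, 0.45 for Cox7a1 and 0.23 for Cox6a2, and 0.68, 0.28 and 0.00 without Comb replicate 3, given as descriptions over tumors that share their groups. The median over the 86 members was 0.07 with and -0.16 without that tumor. The part of muscle tissue in the levels of the members was not tested.

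Of the widely expressed counterparts, Cox6a1 had 577, 486 and 621 CPM in Con and 513, 397 and 606 CPM in Comb, and Cox7a2 had 458, 374 and 395 CPM in Con and 383, 452 and 633 CPM in Comb, with overlap in both. Cox8a had 307, 325 and 295 CPM in Con and 300.3, 287 and 582 CPM in Comb. Comb replicate 3 was the highest of all 12 tumors for Cox7a2 and Cox8a, where the others reached at most 458 and 356 CPM, and for Cox6a1 it lay below Con replicate 3. Against the mean of the other 11 tumors it was 0.30 higher for Cox6a1, 0.68 for Cox7a2 and 0.96 for Cox8a on the log2(CPM + 1) scale, beside 2.76 for Cox6a2, 3.82 for Cox7a1 and 5.86 for Cox8b. Cox4i2, the lung-type form of Cox4i1, was at most 5.77 CPM, in Comb replicate 3, and Cox6b1 had 206, 174 and 206 CPM in Con, 230.1, 254 and 228 CPM in SFIH, 163, 199 and 183 CPM in PD and 199, 255 and 627 CPM in Comb, highest in Comb replicate 3. Ndufa4l2, a paralog of Ndufa4 known to be induced by low oxygen, had 28.6, 28.1 and 31.8 CPM in Con, 23.4, 20.7 and 30.5 CPM in SFIH, 17.0, 42.0 and 12.7 CPM in PD and 29.4, 14.2 and 17.3 CPM in Comb, with overlap between Con and each treated group.

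Other genes of mitochondrial energy metabolism were read from lists beside the members. In Comb against Con the median log2 fold change was -0.08 over 41 assembly factors, -0.01 over 16 genes of the citric acid cycle and pyruvate dehydrogenase, 0.09 over 77 mitochondrial ribosomal proteins and -0.30 over 9 regulators such as Esrra and Tfam, beside 0.36 over the members. With all tumors, at an unadjusted p under 0.05 in edgeR, 6 of the 41 assembly factors were higher and 4 lower, 2 of the 16 citric acid cycle genes were higher and 2 lower, 11 of the 77 ribosomal proteins were higher and 2 lower, and 0 of the 9 regulators were higher and 1 lower, beside 18% and 7.3% of all genes. Without Comb replicate 3, 4 assembly factors were higher and 4 lower, beside 11.4% and 7.43% of all genes. The counts of the other lists without that tumor are not given here. Without Comb replicate 3 the medians were -0.01, -0.03, 0.09 and -0.19, beside 0.06 over the members. In SFIH against Con the median was 0.11 over the ribosomal proteins, of which 16 of 77 lay higher and 5 lower without overlap, 20.8% and 6.49% beside 8.55% and 8.86% of all genes and 17.4% and 2.33% of the members. In Comb against PD their median was 0.11, and 22 of 77 lay higher and 0 lower, 28.6% beside 6.16% of all genes and 31.4% of the members. There 7 of the 41 assembly factors lay higher and 3 lower (17.1% and 7.32%), 4 of the 16 citric acid cycle genes higher and 2 lower (25% and 12.5%), and 0 of the 9 regulators higher and 2 lower (22.2%), beside 8.1% of all genes in the lower direction. In PD against Con the medians of the 4 lists lay between -0.10 and -0.02. Without TMM the median of the members in Comb against Con was 0.06, those of the 4 lists lay between -0.50 and -0.17, and that of all genes was -0.29. The list of 4 further factors (Cyc1, Cycs, Atpif1 and Usmg5) had a median of 0.38 in Comb against Con and 0.16 without Comb replicate 3.

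How far the members moved together over the tumors was read from pairs of members, without pairs of all genes beside them. Over 3655 pairs of tested members the median Spearman's rho across the 12 tumors was 0.33, and it was 0.36 for 958 pairs of the same complex and 0.32 for 2697 pairs of different complexes. Without Comb replicate 3 these were 0.23, 0.25 and 0.22 over 11 tumors. The median was 0.37 within complex I and 0.15 within complex II with all tumors. All pairs share the same libraries and their scaling, and the values are a description.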

How the data were processed

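RNA of 12 tumors (4 groups of 3) was sequenced from the 3′ end with QuantSeq, and the authors deposited a table of raw counts per gene. The aligner, the counting settings, the genome build and the annotation are not given in the sources used here, so genes that share reads with pseudogene copies or antisense neighbours are uncertain; 41 of the 87 members overlap another gene of GENCODE M21.

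From these counts, genes passing filterByExpr (13464) were fitted in 1 model of 4 groups over all tumors with edgeR 4.0.16 (R 4.3.3), TMM factors and the two-sided quasi-likelihood test, with Benjamini-Hochberg adjustment over all genes tested and a threshold of 0.05. DESeq2 1.42.0 (all genes with a count, with its own filter), total counts without TMM, no filter, a replicate block, the compared groups alone and leaving out each tumor were the alternatives. The 2 contrasts averaged over groups and the comparisons of 6 tumors with 6 were added after the data had been seen. Levels are log2(CPM + 1). Groups do not overlap where every tumor of one lies above every tumor of the other. The chi-square per degree of freedom between tumors of a group ran from 10.7 to 389, so none repeated another of its group. The fits were tested on simulated data.

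Named with their fits were up to 3 members per direction with the smallest p in each comparison. Core subunits, tissue-restricted paralogs with their counterparts and the members of largest and smallest range were named by role or range, and other names were chosen after their values had been seen. The members and lists were chosen with earlier results of these data known. 1 member is not reported by name here.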

Additional observations from a re-analysis of the deposited data

Results flagged for a closer look

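Sdha, the flavoprotein of succinate dehydrogenase, lay lower with SFIH alone and higher with SFIH beside anti-PD-1. Every SFIH tumor (118 to 123 CPM) lay below every Con tumor (129 to 146 CPM), while every Comb tumor (132 to 186 CPM) lay above every PD tumor (119 to 130 CPM). On total counts without TMM, SFIH still lay below Con, but Comb with 135, 122 and 141 CPM overlapped with PD, which had 131, 111 and 134 CPM. The interaction was 0.46 on the log2 scale (unadjusted p = 0.0703, adjusted p = 0.894 by edgeR) with all tumors and 0.29 (unadjusted p = 0.0832, adjusted p = 0.9998 by edgeR) without Comb replicate 3, so that the difference did not pass the test.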

How the results depend on the processing

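Every median and count named here is over the members. DESeq2 in place of edgeR moved the count of called members from 0 to 10 in Comb against Con, 6 in Comb against PD, 1 in Comb against SFIH, 4 in SFIH given against not given and 2 in anti-PD-1 given against not given. DESeq2 without Comb replicate 3 gave 4, 1, 0, 8 and 5, with medians of 0.0822 in Comb against Con, 0.21 in Comb against PD, 0.0158 in Comb against SFIH and 0.14 for the interaction. Without TMM the median was 0.0640 in Comb against Con and -0.0384 in Comb against SFIH. With Rn45s out of the total the members' share was 1.71% in Con, 1.81% in SFIH and 1.53% in PD. Leaving out 1 tumor at a time, the edgeR counts ran from 0 to 30 in Comb against Con, 0 to 31 in Comb against PD, 0 to 21 in Comb against SFIH, 0 to 4 in SFIH given and 0 to 6 in anti-PD-1 given, each highest without Comb replicate 1, and the medians from 0.0615 to 0.55, 0.19 to 0.71, -0.00672 to 0.45 and, for the interaction, 0.13 to 0.55. The cause was not tested. Of 286 medians, counts and shares 259 moved by less than their limit (1 SD between replicates, or 1.5 times for a count) and 27 by more, and for single named genes 809 of 844 kept their direction and side of the threshold and 35 newly passed it. With the replicate number as a block, 0 members were called in all 8 comparisons, and the medians were 0.06, -0.11, 0.34, 0.50 and 0.24 in SFIH and PD against Con and Comb against Con, PD and SFIH. The labels do not say that the numbers pair the tumors, and no other call changed: over 18 pairs of the same number the correlation of deviations ran from -0.288 to 0.409. Depth of 7870741 to 12261032 reads limits Cox8b, Cox7b2 and Cox4i2, which rest on few counts in most tumors.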
